A study of Mus musculus with 8 samples.

Results

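Sox1, Sox2 and Sox3, the 3 genes of the SoxB1 group of transcription factors, were followed across sorted cells of mouse medulloblastoma. The genes were chosen by name, and all 3 were among the 22180 genes that the platform annotation names by a single symbol. Each was read by 1 probe set, the group of short probes on the array that measures a transcript. The study used Patched1+/- mice on a CD1 background crossed with B6 mice carrying Sox2eGFP, a fluorescent reporter of Sox2. All animals had been irradiated with 3 Gy at birth and were killed, aged over 70 days, once signs of a brain tumour appeared. Dissociated cells were depleted of CD45+ (white blood) and Ter119+ (red blood) cells and sorted into an eGFP+ (Sox2-positive) and an eGFP- (Sox2-negative) fraction. Each fraction was profiled on 4 arrays, and each array held the RNA of 3 tumours pooled. The construct behind the reporter, and whether it left both Sox2 alleles intact, are not stated in the labels.

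SoxB1 proteins bind DNA through an HMG box, the domain that defines the Sox family, and mostly activate transcription. They keep neural stem and progenitor cells undifferentiated, often overlap in expression and can partly replace one another in the developing nervous system. The SoxB2 proteins Sox14 and Sox21 bind similar sites but act mainly as repressors. In the cerebellum, Sox2 is known in glial and stem-like cells, and in this form of medulloblastoma the bulk of the tumour consists of granule neuron progenitors driven by Hedgehog signalling.

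The 3 genes did not give the same result, though a direct test did not separate Sox3 from Sox1. Sox2, the gene whose reporter was used for the sort, was 3.13-fold higher in Sox2-positive cells, Sox3 was 1.39-fold higher, and Sox1 did not pass the test. Values are log2 expression values as the authors deposited them, and differences are Sox2-positive minus Sox2-negative on that scale. A gene was called where limma, fitted on all 22180 genes, gave an adjusted p under 0.05. Of all genes, 5.96% were called higher and 2.52% lower (8.47% in all), so calls were common. The 4 values of Sox2-positive cells all lay above those of Sox2-negative cells for 7.63% of all genes.

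In the Sox2-positive pools 1 to 4, Sox2 stood at 5.67, 6.07, 6.36 and 5.68. In the Sox2-negative pools 1 to 4 it stood at 4.05, 4.60, 4.49 and 4.04. The groups were far from overlapping, and pools 2 and 3 were the higher ones in both fractions. The log2 difference was 1.65 (SE 0.17, 95% interval 1.28 to 2.01, limma adjusted p = 2.53e-05), from 5.94 ± 0.34 against 4.30 ± 0.29 (mean ± SD, n = 4 each). The interval corresponds to 2.44-fold to 4.03-fold. Since the sort selected on a Sox2 reporter, this difference checks the labels and is not an independent finding. Between pools of the same number the differences were 1.62, 1.46, 1.88 and 1.63, a narrower spread than that of the levels within either fraction.

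Sox3 lies on the X chromosome and is thought to be the member most like the ancestor of Sry. Its values were 5.43, 5.67, 5.51 and 5.67 in Sox2-positive pools 1 to 4. They were 5.40, 4.96, 5.16 and 4.85 in Sox2-negative pools 1 to 4. The groups did not overlap, but the lowest Sox2-positive value exceeded the highest Sox2-negative value by only 0.029, and both came from pools numbered 1. The log2 difference was 0.48 (SE 0.12, 95% interval 0.22 to 0.73, limma adjusted p = 0.0233), from 5.57 ± 0.12 against 5.09 ± 0.24 (n = 4 each). Between same-numbered pools it was 0.03, 0.71, 0.35 and 0.81. Sox3 was no longer called with Sox2-positive pool 2 (0.0773) or 4 (0.0716) dropped, or with Sox2-negative pool 2 (0.062) or 4 (0.0695) dropped, all limma adjusted p. Nor was it called when all 41345 probe sets, named or not, were fitted and adjusted together (0.0852), a setting chosen after seeing the data.

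Sox1, the earliest marker of committed neural cells among the 3, read 8.42, 7.99, 8.48 and 8.23 in Sox2-positive pools 1 to 4. In Sox2-negative pools 1 to 4 it read 8.24, 8.52, 8.17 and 7.85. The groups overlapped across most of their range, and the Sox2-positive value was the higher one in 9 of the 16 possible pairs of arrays, against 16 of 16 for Sox2 and for Sox3. The log2 difference was 0.09 (SE 0.14, 95% interval -0.22 to 0.39, limma adjusted p = 0.808), from 8.28 ± 0.22 against 8.19 ± 0.27 (n = 4 each). The interval runs from 0.859-fold to 1.31-fold. Its upper end lies below the lower end of the interval for Sox2 (2.44-fold), whose difference was set by the sort. The sign of the Sox1 difference is not settled, as it turned to -0.0016 with quantile normalization and to -0.03 without Sox2-negative pool 4. Between same-numbered pools it was 0.18, -0.53, 0.31 and 0.37, so pool 2 ran against the others.

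**Figure D1:**
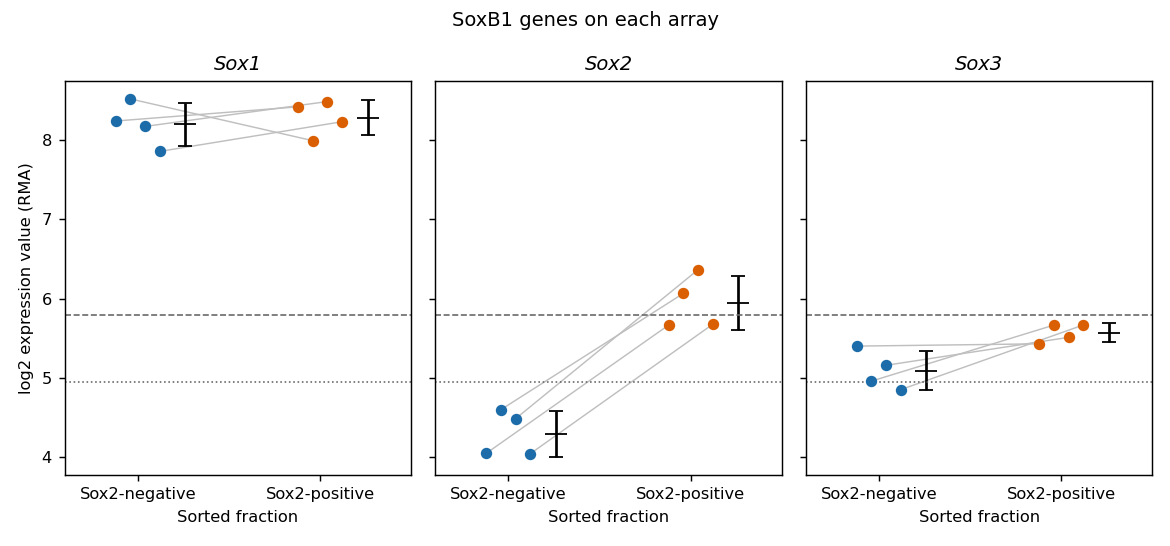
The log2 expression value of Sox1, Sox2 and Sox3 is plotted for each array, by sorted fraction. Blue points are the 4 Sox2-negative pools and orange points the 4 Sox2-positive pools, in order of pool number from left to right, thin lines join pools of equal number, and black bars give the mean ± SD. The dashed and dotted lines mark the upper quartile (5.80) and median (4.95) of receptor genes used as a guide to dim values. The fractions are apart for Sox2, nearly touch for Sox3 and overlap for Sox1.

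The deposited values carry no detection call, so 1394 genes of odorant and pheromone (vomeronasal) receptors gave a guide to dim values. Most of these genes were assumed to be silent in the sorted cells, which was not tested. Not all of them read low, as the highest mean among them was 9.96. In Sox2-positive cells 0.502% of these receptor genes had a higher mean than Sox1, 19.6% a higher mean than Sox2 and 29.3% a higher mean than Sox3. In Sox2-negative cells the shares were 0.861%, 72.4% and 47.8%. By the upper quartile of the receptor genes (5.80), Sox1 was clear of the dim range in both fractions and Sox3 lay within it in both. Sox2 lay within it in the Sox2-negative fraction. Its Sox2-positive mean (5.94) was just above that limit, with pools 1 (5.67) and 4 (5.68) below it. The levels of different probe sets depend on their probes, so this order does not rank the amounts of the 3 transcripts. A fold against a level in the dim range, as for Sox2 and Sox3, understates the difference if the probe set read background there. In such bulk samples, fewer cells expressing a gene and less RNA per cell cannot be told apart.

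Whether the members differed from one another was tested directly, as the difference between their log2 differences, in 3 pairs. The difference of Sox2 exceeded that of Sox1 by 1.56 (exact two-sided permutation test over the 8 arrays, p = 0.0286, adjusted over the 3 pairs 0.0429). It exceeded that of Sox3 by 1.17 (exact permutation p = 0.0286, adjusted 0.0429). For both pairs the per-array values of the fractions did not overlap, and 0.0286 is the smallest p that 4 arrays against 4 allow. With pool number as a block the exact permutation p was 0.125 for both, the smallest that 4 pairs allow, and with any 1 array dropped it was 0.0571, again the smallest possible. The difference of Sox2 was set by the sort, so a larger difference for Sox2 was favoured in advance. The tests that involve Sox2 are therefore not independent findings. The difference of Sox3 was measured in the dim range and may be understated, so the size of these gaps holds for the values as measured. Sox3 exceeded Sox1 by 0.39, which did not pass (exact permutation p = 0.143, adjusted 0.143). Sox3 passing its own test while Sox1 missed it therefore does not show that they differ.

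**Figure D2:**
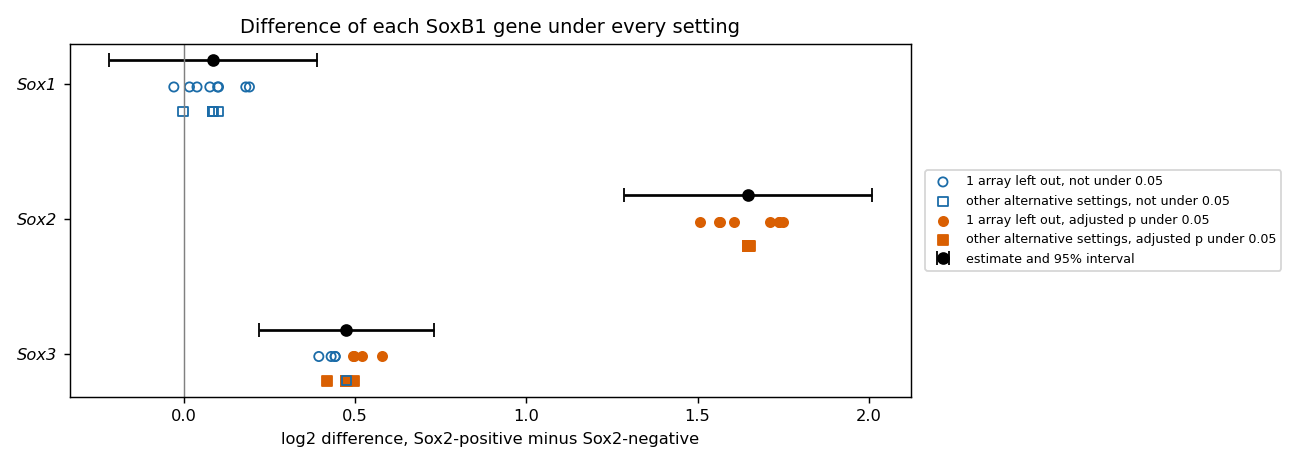
Log2 differences between the fractions are plotted for the 3 genes. Black points and bars are the estimate and its 95% interval, circles below it leave out 1 array each, and squares are the other alternative settings. Filled orange symbols have an adjusted p under 0.05 and open blue ones do not. Sox2 stays past the threshold throughout, Sox3 crosses it in 5 settings, and Sox1 lies around 0.

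Noncoding transcripts neighbour 2 of the members, and they were looked at after their values were seen. Sox2 lies inside the gene of the long noncoding RNA Sox2ot. A probe set that the annotation assigns jointly to Sox2ot and to the microRNA gene Mir1897, and so to neither alone, read 6.37 to 6.74 in Sox2-positive and 5.20 to 5.76 in Sox2-negative pools. Its log2 difference was 1.24 (SE 0.14), with a limma adjusted p = 0.00129 over all 41345 probe sets, so it was 2.35-fold higher. Sox1ot, the corresponding transcript at Sox1, was at 5.85 ± 0.08 against 5.76 ± 0.07 (n = 4 each). Its log2 difference was 0.09 (95% interval -0.09 to 0.27, limma adjusted p = 0.628) and did not pass, as for Sox1 itself.

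The sequences just upstream of Sox2, which differed most, and of Sox1, which did not pass, are shown to set the regions before these 2 transcription starts side by side. They are the 250 bases before the RefSeq start on the plus strand of GRCm38.p6, at chr3:34649745-34649994 for Sox2 and at chr8:12395269-12395518 for Sox1, 5′ to 3′. Capitals mark every match, on either strand, to ACAAAG or ACAATG (the sequence an HMG box of the Sox family binds), ATGCAAA (part of the octamer bound by POU factors), CCAAT (the CCAAT box) or TATAAA (the TATA box).
Sox2: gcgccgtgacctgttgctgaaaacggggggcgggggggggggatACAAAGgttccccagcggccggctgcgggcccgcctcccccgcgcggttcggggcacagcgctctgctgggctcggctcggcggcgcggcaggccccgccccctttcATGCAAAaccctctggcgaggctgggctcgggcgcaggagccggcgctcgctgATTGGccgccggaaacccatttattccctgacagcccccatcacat
Sox1: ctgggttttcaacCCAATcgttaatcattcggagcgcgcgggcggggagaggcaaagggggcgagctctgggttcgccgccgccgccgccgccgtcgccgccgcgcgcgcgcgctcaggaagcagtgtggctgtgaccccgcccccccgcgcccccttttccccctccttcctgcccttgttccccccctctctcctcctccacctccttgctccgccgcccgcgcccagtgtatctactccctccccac
Both stretches were rich in G and C, 72% in Sox2 and 71.2% in Sox1, against a median of 52.4% over 32851 promoter entries of the same length. They held 27 and 29 CpG dinucleotides, against a median of 6. In the Sox2 stretch the search found ACAAAG from 206 to 201 bases before the start, ATGCAAA from 99 to 93 bases before it, and CCAAT on the opposite strand from 46 to 42 bases before it. The Sox1 stretch held CCAAT alone, from 237 to 233 bases before the start. Among all entries 16.5% held ACAAAG, 10.7% ACAATG, 4.12% ATGCAAA, 33.8% CCAAT and 12.4% TATAAA. These matches describe letters and not binding sites.

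Single genes of other Sox families differed between the fractions too, while others of the same families did not pass. Of the 17 other Sox genes measured, 4 were higher and 1 lower, with a median of -0.02 against -0.03 over all genes. Those not passing included Sox9 (SoxE, log2 difference -0.10), Sox5 (SoxD, -0.05), Sox13 (SoxD, 0.02), Sox4 (SoxC, -0.0021) and Sox12 (SoxC, -0.29). Sox10, a SoxE factor that oligodendrocytes depend on, rose 5.42-fold (log2 difference 2.44, SE 0.16, limma adjusted p = 3.77e-07). The SoxD gene Sox6 was 3.03-fold and the SoxE gene Sox8 2.21-fold higher. Sox21, the SoxB2 repressor that counteracts SoxB1 factors, read 5.85, 5.85, 5.94 and 5.83 in Sox2-positive pools and 5.13, 5.09, 5.32 and 5.25 in Sox2-negative pools. It was 1.59-fold higher by its brightest probe set (log2 difference 0.67, SE 0.09, limma adjusted p = 0.000187). With its probe sets averaged the log2 difference was 0.33 (adjusted p = 0.0348). The 1 lower gene, named after its value was seen, was Sox11, a SoxC factor of young neurons, which fell by 0.43 (SE 0.09, limma adjusted p = 0.00988).

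**Figure D3:**
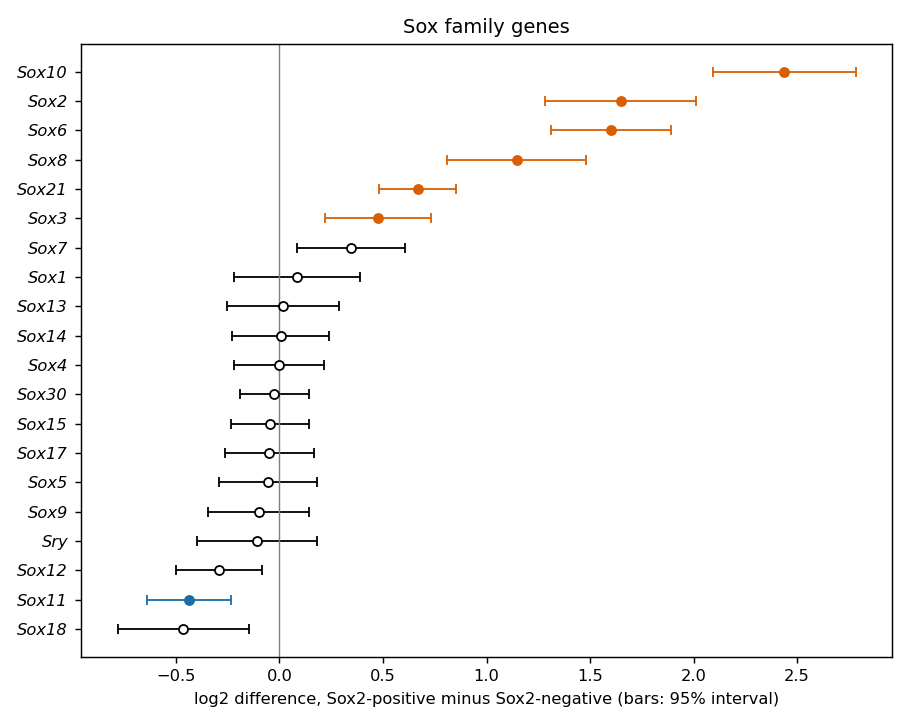
Log2 differences with 95% intervals are plotted for the 20 Sox genes, ordered by difference. Filled orange points were called higher, filled blue lower, and open black points did not pass. Sox10 (2.44), Sox2 (1.65), Sox6 (1.60), Sox8, Sox21 and Sox3 (0.48) were called higher, and Sox1 (0.09) lies among the genes that did not pass. The order is that of the measured values: the intervals of Sox2 and Sox6 overlap, and differences of dim genes such as Sox2 and Sox3 may be understated.

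SoxB1 factors act on DNA together with partner proteins. Of 13 such partners listed, 11 were measured, of which 1 was higher, 4 were lower and 6 did not pass (median log2 difference -0.09). The higher one was Pou3f1, a POU factor of the oligodendrocyte and Schwann cell lineages, at 6.17, 5.78, 6.29 and 5.90 in Sox2-positive pools and 5.34, 5.10, 5.42 and 5.48 in Sox2-negative pools. It was 1.62-fold higher (SE 0.12 on the log2 scale, limma adjusted p = 0.00246), with no overlap of the groups. Chd7, a chromatin remodeller known to bind Sox2 in neural stem cells, went the other way and fell by 0.67 (SE 0.10, limma adjusted p = 0.000648). Zic2 fell by 1.09 and Pax6, which forms a complex with Sox2 in the eye, fell by 0.90. Zic2 and Pax6 are also markers of granule neuron progenitors, whose list fell as described below. Prox1, named after its value was seen, fell by 0.49 at a limma adjusted p of 0.0493. In 10 of 16 alternatives Prox1 did not pass (0.0505 to 0.156), including every fit with 1 array fewer apart from that without Sox2-negative pool 4.

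Genes reported as targets of SoxB1 factors moved in both directions. All 23 listed were measured, 5 higher, 1 lower and 17 not passing, with a median log2 difference of 0.04. Fabp7, a lipid-binding protein of radial glia, was 6.31-fold higher (log2 difference 2.66, SE 0.28, limma adjusted p = 3.45e-05). In the Sox2-negative fraction the pools spread widely, from 7.16 in pool 4 to 8.84 in pool 3, but stayed below the lowest Sox2-positive pool (10.65). Sparc, a secreted matrix protein, was 2.36-fold higher. Hes5, a Notch-responsive repressor of neuronal differentiation, was 1.93-fold and the receptor gene Notch1 1.87-fold higher. For Hes5 the log2 difference of 0.95 dropped to 0.44 with its probe sets averaged. The other called target genes, Ccnd1 and Gli2, were named after their values were seen. Ccnd1, the cyclin of G1, was 1.49-fold higher (limma adjusted p = 0.00282). Gli2, a transcription factor of the Hedgehog pathway, fell by 0.58 (adjusted p = 0.0176), and was no longer called once Sox2-positive pool 2, Sox2-positive pool 3 or Sox2-negative pool 1 was dropped (0.053 to 0.0648). Nes, the intermediate filament gene with a well-known Sox2-dependent enhancer, was also looked at afterwards. It read 6.17, 5.92, 6.16 and 6.16 in Sox2-positive and 6.34, 6.20, 6.29 and 6.28 in Sox2-negative pools. Its Sox2-positive values thus all lay below the Sox2-negative ones, as they did for 6.07% of all genes. The difference of -0.17 for Nes did not pass (limma adjusted p = 0.307).

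Of 14 genes listed as antagonists or regulators of SoxB1 factors, 11 were measured, 1 higher, 2 lower and 8 not passing (median -0.10). The higher one was Sox21, described above. The lower ones were proneural factors, whose family drives cells out of the SoxB1-maintained state. Neurod1 is also on the list of granule neuron progenitor and tumour cell genes, which fell as described below. Neurod1 fell by 0.82 (SE 0.19, limma adjusted p = 0.0155), with overlapping groups, and narrowly missed the threshold when Sox2-positive pool 2 was dropped (0.0529). Neurod4 fell by 0.42 (SE 0.09, limma adjusted p = 0.0114), from 6.20 ± 0.15 to 5.77 ± 0.06 (n = 4 each).

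**Figure D4:**
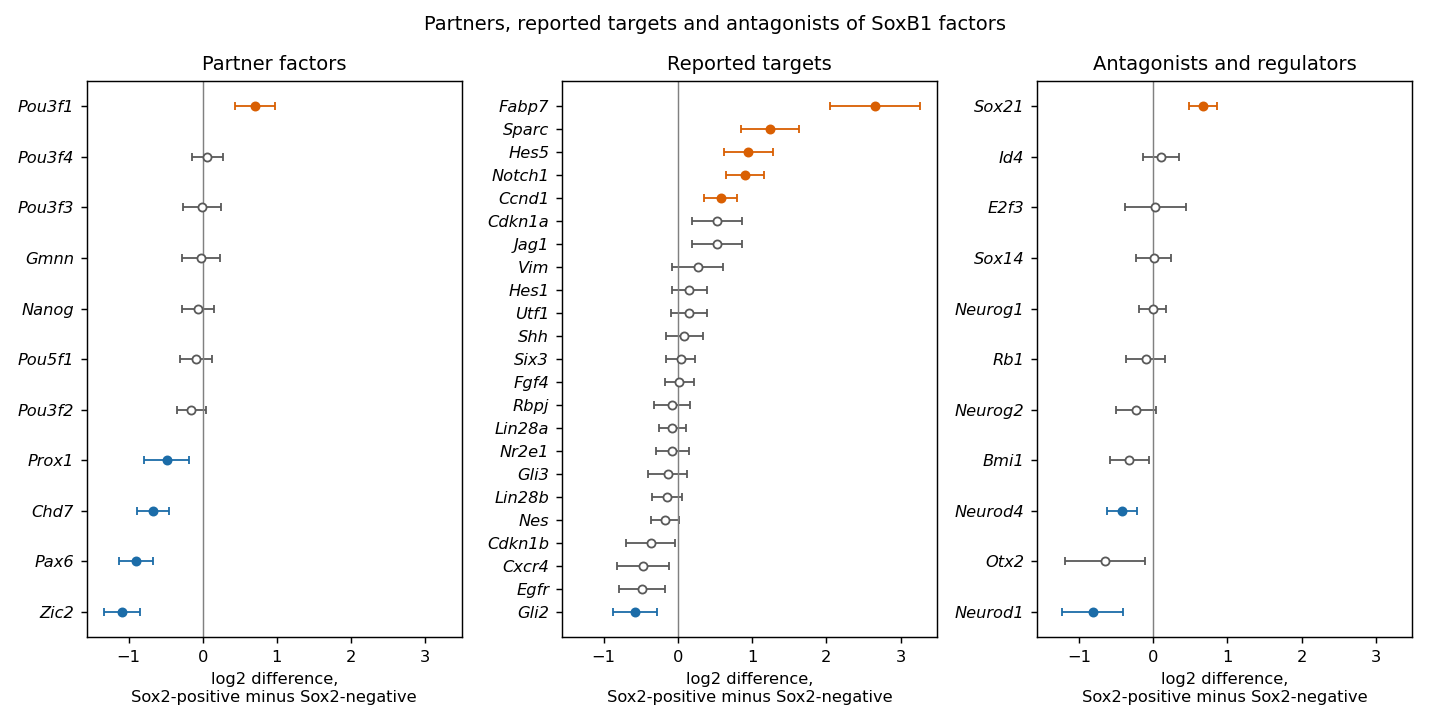
Log2 differences with 95% intervals are plotted for the measured partner factors, reported targets and antagonists of SoxB1 proteins. Filled orange points were called higher in Sox2-positive cells, filled blue points lower, and open grey points did not pass. Calls run both ways in all 3 lists, from Fabp7 (2.66) at the top to Zic2 (-1.09) at the bottom.

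The genes whose pattern over the 8 arrays was most like that of each member were found by the root mean square (RMS) difference between log2 values, after each gene's own mean was subtracted. Over 10338 genes compared, Abhd4, a lipase of phospholipid metabolism, came closest to Sox2, at an RMS difference of 0.079, where the pattern of Sox2 itself had an RMS of 0.867. Abhd4 stood at 8.80, 9.19, 9.38 and 8.87 in Sox2-positive pools and 7.21, 7.75, 7.54 and 6.99 in Sox2-negative pools. It shared with Sox2 both the distance between the fractions and the higher pools 2 and 3. The search chose genes for such a likeness, so these shared traits are not independent findings. Next came the tetraspanin gene Cd81 (0.146), Dock10 (0.148), the cholesterol transport gene Npc1 (0.156) and Ehd3 (0.158). These 5 genes were 2.68-fold (Cd81) to 3.22-fold (Abhd4) higher by their brightest probe sets. For Npc1 the log2 difference of 1.67 dropped to 0.87 with its probe sets averaged.

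For Sox3 the closest were the chaperone gene Hsp90b1 (RMS difference 0.089, where Sox3 itself had 0.289), Ndn (0.093), Zhx1 (0.106), Rgl3 (0.107) and Nav3 (0.108). All 5 were called higher, by 1.30-fold to 1.42-fold. Since they were chosen for a pattern like that of Sox3, which includes the difference between the fractions, these calls are not independent findings. Leaving out 1 pool ended the calls of Zhx1 (Sox2-positive 2 or Sox2-negative 4), Rgl3 (pool 2 or 4 of either fraction) and Nav3 (Sox2-positive 3 or 4), at limma adjusted p of 0.0514 to 0.0779. For Sox1, over 10337 genes, the closest were the histone gene H2az2 (0.07, where Sox1 itself had 0.219), the ribosomal protein gene Rpl38 (0.073), Ssbp2 (0.09), Ncaph2 (0.092) and Mrrf (0.095). None of these 5 passed the test, with log2 differences of 0.02 to 0.11 in limma. Among Sox2-negative pools, they shared with Sox1 the highest value in pool 2 and the lowest in pool 4. For Ncaph2, pool 2 (6.356) barely exceeded pool 1 (6.353). As these genes were chosen for the pattern of Sox1, the likeness and the lack of calls follow from the choice.

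**Figure D5:**
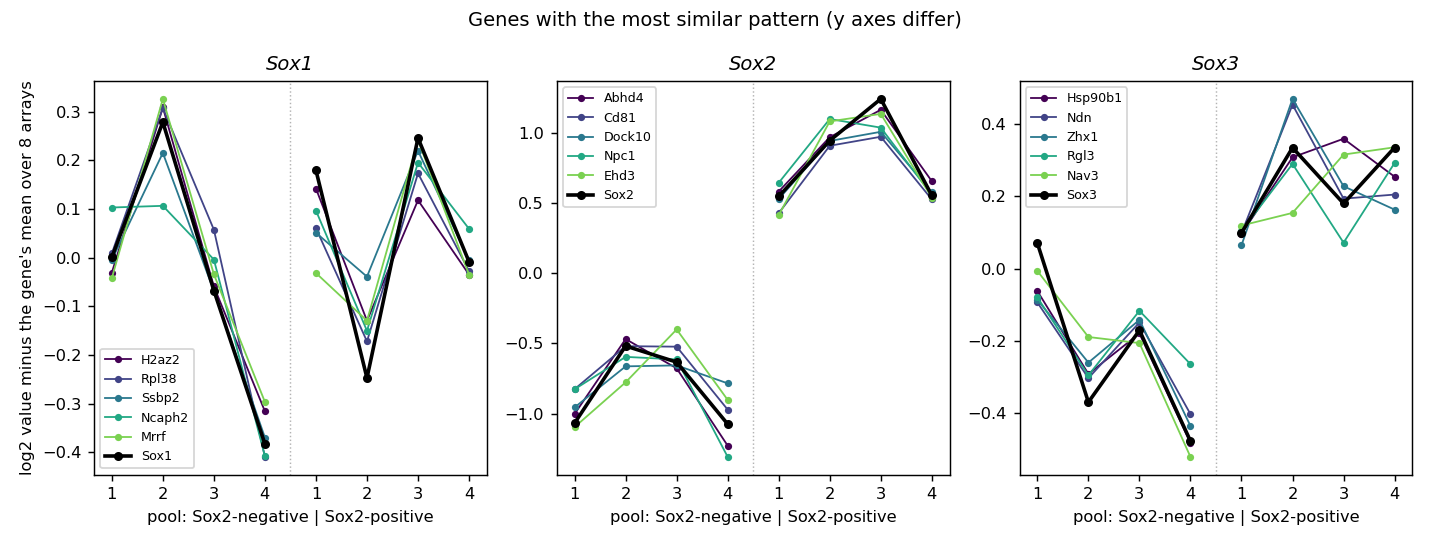
For each member (black) and its 5 closest genes (colours), the log2 value minus the gene's mean over the 8 arrays is plotted by pool, Sox2-negative on the left and Sox2-positive on the right of each panel. The y axes differ between panels. The Sox2 panel shows a step between the fractions with pools 2 and 3 higher in each, and the Sox1 panel shows spread among pools with no step.

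Markers of some other cell types were higher in the Sox2-positive fraction, as was Sox2. All 10 oligodendrocyte progenitor genes were higher (median log2 difference 2.71), led by Ptprz1 (27.1-fold), Tnr (16.3-fold), Olig1 (16.1-fold) and Olig2 (10.9-fold). Their mean log2 value ran from 8.77 to 9.46 over the Sox2-positive pools and from 6.09 to 6.15 over the Sox2-negative pools. Of 15 astrocyte and Bergmann glia genes, 10 were higher and 0 lower (median 1.06), led by Sparcl1 (9.19-fold), Slc1a3 (4.46-fold), Clu (3.02-fold) and Hepacam (2.91-fold), with list means of 6.89 to 7.53 against 6.06 to 6.11. Within Sox2-positive cells, pools 2 and 3 were the higher ones for Sox2 and for both lists. Pool 3 was highest for Sox2 (6.36) and the astrocyte list (7.53), and pool 2 for the oligodendrocyte progenitor list (9.46). Within Sox2-negative cells both lists varied little. There, pools 2 (6.148) and 3 (6.113) were the higher ones for the progenitor list, as for Sox2, but pools 1 (6.093) and 4 (6.094) were close to pool 3. For the astrocyte list pool 1 (6.112) was highest and pools 2 (6.058) and 3 (6.057) were lowest, unlike for Sox2. The part of these cell types in the difference of Sox2 and Sox3 was not tested.

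Of 10 mature oligodendrocyte genes measured, 4 were higher and 0 lower (median 0.43), with list means of 6.01 to 6.96 against 5.59 to 5.75. Ugt8a was 3.29-fold, Cnp 3.27-fold, Cldn11 3.04-fold and Mbp 1.51-fold higher. Mbp was no longer called with Sox2-positive pool 4 or Sox2-negative pool 1 dropped (0.0581 to 0.0674), nor Cldn11 with Sox2-positive pool 4 dropped or a robust variance (0.0523 to 0.0972). Of 14 neural stem cell markers measured, 4 were higher and 2 lower (median 0.06). Fabp7, Slc1a3, Hes5 and Gfap (1.72-fold) were higher, while Pax6 and Msi1 (fell by 0.51) were lower; Gfap and Msi1 were named after their values were seen.

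The label of medulloblastoma cells was checked against 16 markers of granule neuron progenitors and tumour cells, and 0 of them had both fraction means in the dim range. Of these, 14 were lower in Sox2-positive cells and 1, Ccnd1, was higher (median -0.77), with list means of 7.89 to 8.12 against 8.67 to 8.93. Cntn2 fell by 1.49, Nhlh1 by 1.35, and Zic2 and Pax6 as given above. Cells the sort was meant to remove gave no call in limma: 0 of 13 microglia and macrophage genes (median -0.05, widest difference Ctss, -0.26) and 0 of 1 red blood cell gene (Slc4a1, 0.14). At an unadjusted p under 0.05 these would be 2 and 0, where 4454 of all 22180 genes had such a p. Cells left equally in both fractions would also give no call, so the test does not show that they were removed. Both fraction means lay in the dim range for 8 of the 13 microglia and macrophage genes and for Slc4a1. Both lay above it for Cx3cr1 (7.26 against 7.18) and Cd68 (6.71 against 6.70), the Sox2-positive mean first. Of 11 endothelial and mural genes 1 was higher, Rgs5 (1.29-fold), and the median was -0.07. Rgs5 did not pass with Sox2-positive pool 4 dropped (0.0571) or with its probe sets averaged (0.252). Meningeal and fibroblast genes gave 0 of 8 (median -0.08, Igf2 -0.27) and ependymal and choroid plexus genes 0 of 8 (median -0.20), or 0 and 2 at an unadjusted p under 0.05. For the choroid plexus gene Ttr the difference was -1.05 (limma adjusted p = 0.119), which passed with Sox2-negative pool 1 dropped (0.00459) and in the fit with pool number as a block (0.00504).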

How the data were processed

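Gene expression was measured on Affymetrix arrays. Per the submitters' processing notes, the authors ran RMA in Affymetrix Expression Console (version 1.2.0.20), and what they deposited is a log2 value for every probe set on every array. The scale was read from the values (2.51 to 13.6). RMA compresses fold changes of dim genes. The genome build is not given in the sources used here.

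Of 41345 probe sets, 23521 had 1 gene symbol. The one with the highest mean over 8 arrays was taken for each of 22180 genes. The test was limma's (version 3.58.1, R 4.3.3; lmFit, eBayes, group only, two-sided), with Benjamini-Hochberg adjustment over all genes at a threshold of 0.05. The procedure was tested on simulated data. Precision is limited by the 4 arrays per fraction, and p-values measure the spread between pools of 3 tumours. The main tests (limma by group only and the exact permutation test) did not pair the pools. Equal pool numbers were taken as pairs only where stated, because their deviations from the group means correlated at 0.164, 0.114, 0.177 and 0.241, all over 0.1. The highest correlation between unequal numbers was 0.161, above that of pools numbered 2. The pairing is thus not clear-cut, and it is a pairing seen in the values and not stated by the labels. The replicate block was an alternative fit. The other alternatives were quantile normalization, median subtraction, a filter on dim genes, the mean of probe sets, array weights, a variance trend, a robust variance and leaving out each array.

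The members and the 15 gene lists, written from general knowledge, were chosen with earlier results of these data known. Up to 4 genes with the largest called difference were named per list (or the 1 largest where none passed), with the 5 genes most like each member. Predicted genes, receptors and genes averaging below the upper quartile of receptors (5.80) were left out of the latter. List members without a probe set of their own were not analysed here. Promoter sequences are from RefSeq (GRCm38.p6), with entries for Sox1 and Sox2.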

Additional observations from a re-analysis of the deposited data

Results flagged for a closer look

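Among 58 genes described, each in 2 groups of 4 arrays, 5 of 116 groups held an array far from the other 3, where chance gives about 1 in 20. None of these was among the 6 groups of Sox1, Sox2 and Sox3. Nes was at 5.92 in Sox2-positive pool 2, below 6.16, 6.16 and 6.17 in the others. Zic2 was at 8.24 in the same pool, below 8.60, 8.60 and 8.63. Olig2 was at 9.85 in Sox2-positive pool 3, above 9.02, 9.13 and 9.15. Ttr was at 8.28 in that pool, above 7.09, 7.15 and 7.26. Pax6 was at 8.60 in Sox2-negative pool 4, below 8.87, 8.90 and 8.91.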

How the results depend on the processing

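Sox2 was higher and past the threshold in all 16 alternatives (log2 difference 1.51 to 1.75, limma adjusted p at most 0.00128). The filter on dim genes removed Sox2 and Sox3, so it gave them no value. Sox3 kept its direction throughout (0.39 to 0.58 with 1 array left out), but its adjusted p rose above 0.05 in 4 of the 8 fits that left out an array and to 0.0852 when all probe sets were fitted (0.48). Sox1 never passed; it was -0.0016 with quantile normalization and between -0.028 and 0.19 with 1 array left out. The replicate block changed no call of the 3 genes (Sox1 0.09, Sox2 1.65, Sox3 0.48, adjusted p = 0.0317 for Sox3), and it gave 1572 genes higher and 768 lower. The exact test of the pairs cannot reach 0.05 with the block or with 1 array left out: the differences by which Sox2 exceeded Sox1 (1.56) and Sox3 (1.17) had p = 0.125 with the block, and they ran from 1.42 to 1.70 and from 0.99 to 1.32 with 1 array left out (p = 0.0571, the smallest possible).

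Of all genes 1321 were higher and 558 lower. With quantile normalization it was 1282 and 847, and with 1 array left out 995 to 1334 and 309 to 591; the lowest count of lower genes, 309, came without Sox2-positive pool 2, then 357 without Sox2-negative pool 1 and 361 without Sox2-positive pool 4. The cause was not tested. Of 45 other named genes called, 36 kept their call in every alternative. Among the genes most like Sox1, none of which passed, signs changed with quantile normalization for H2az2 (-0.049), Mrrf (-0.033) and Rpl38 (-0.065). With 1 array left out H2az2 ran from -0.049 to 0.16, Mrrf from -0.072 to 0.14, Ncaph2 from -0.018 to 0.17 and Rpl38 from -0.12 to 0.12.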
